A study of Aethionema arabicum with 12 samples.

Results

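Abscisic acid (ABA) is the hormone that holds seeds in dormancy, and its level is set by synthesis against breakdown. The main route of breakdown starts with hydroxylation at the 8' carbon by cytochrome P450 enzymes of the CYP707A family, after which the product closes to phaseic acid. In Arabidopsis the family consists of CYP707A1 (AT4G19230), CYP707A2 (AT2G29090), CYP707A3 (AT5G45340) and CYP707A4 (AT3G19270). CYP707A2 is known there for the rapid loss of ABA in the first hours of seed imbibition, CYP707A1 for ABA breakdown in developing seeds, and CYP707A3 for growth after germination and recovery from drought. The transcripts of this family were followed in imbibed *Aethionema arabicum* seeds, accession Cyprus. The species is a relative of Arabidopsis in the Brassicaceae, and light holds back germination in this accession. Members were the gene models that the deposited table pairs with any of the 4 Arabidopsis genes. There were 4 such models among 24932 in all, and 3 of them passed the filter on low counts, as did 15301 models in the whole table.

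Polyadenylated RNA was sequenced from intact seeds that had not germinated, after imbibition on wetted paper at 14 °C. The seeds of 1 condition had 7 d of white light and then 7 d of darkness (called dark-kept seeds here), and those of the other 3 had white light for 1 d (23 h), 7 d or 14 d, all at 100 µmol m-2 s-1. All 12 libraries are wild-type (WT in the sample titles), untransformed seeds of 1 accession, with 3 libraries for each condition. Whether replicate libraries stem from different seed lots is not in the labels, and p-values therefore reflect only how far these libraries spread, possibly for technical reasons. Library totals were 1299536 to 1900418 counts in dark-kept seeds. In light, 1 d libraries held 3387609 to 3996148, 7 d libraries 1596668 to 2689668 and 14 d libraries 916523 to 2448092 counts. All pairs of replicates differed by more than sampling noise, with a chi-square per degree of freedom from 1.14 to 7.68. Replicate 2 of 14 d light stood apart from its replicates 1 and 3 (7.68 and 6.33), a pair with a value of 1.38. Replicate 3 of 7 d light stood apart from its replicates 1 and 2 (5.86 and 5.55), a pair with a value of 1.30. In dark-kept seeds replicates 2 and 3 differed most from each other (3.51), against 1.45 and 1.65 for their pairs with replicate 1. Seed storage genes (3 models paired with the cruciferin CRA1 and 1 with the oleosin OLEO1) were present in every library, so the seed label holds for these markers.

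Of the 4 gene models, Aa31LG5G7160 is paired with CYP707A2, Aa31LG6G1940 and Aa31LG9G7680 are both paired with CYP707A3, and Aa31LG8G6060 is paired with CYP707A4. No gene model in the table is paired with CYP707A1. The pairing comes from the deposited table, and which of the models paired with CYP707A3 stands closer to CYP707A1 was not analysed here. All 4 carry the same 4 gene ontology terms, for iron binding, heme binding, oxidoreductase activity and oxidation-reduction, which 175 other models carry as well. Their gene lengths are 3023 bp (CYP707A2 model), 4079 bp and 2323 bp (CYP707A3 models Aa31LG6G1940 and Aa31LG9G7680) and 2403 bp (CYP707A4 model).

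The CYP707A2 transcript was the most abundant of the family in every library, and it changed in both directions. In dark-kept seeds it stood 4.02-fold below its level in seeds of equal age kept in light. Over the light series it was high after 1 d, lower after 7 d and high again after 14 d. Its raw counts were 29, 44 and 45 in dark-kept seeds, against 414, 389 and 438 after 1 d of light, 170, 117 and 76 after 7 d and 101, 241 and 138 after 14 d. Expressed as CPM (counts divided by library size, scaled for composition), the level was 19.6, 35.85 and 25.0 in dark-kept seeds. It was 104.1, 106.2 and 100.2 CPM after 1 d of light, 62.7, 51.6 and 48.3 CPM after 7 d, and 119.7, 98.8 and 103.5 CPM after 14 d. Every dark-kept library lay below every library of the other conditions, and the libraries of 7 d lay between those and the libraries of 1 d and 14 d, which overlapped.

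**Figure D1:**
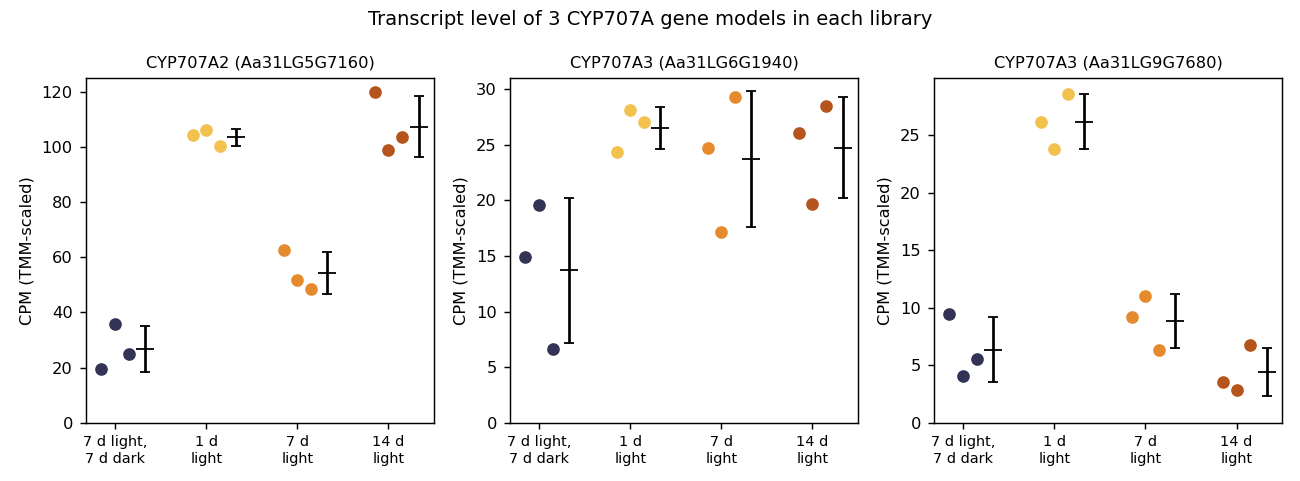
Level of the CYP707A2 model and both CYP707A3 models in CPM (linear axis from 0) in each of the 12 libraries, by condition; points are libraries and black bars are the mean ± SD of 3 libraries. CYP707A2 is lowest in dark-kept seeds (19.6 to 35.85 CPM) and high at both ends of the light series; Aa31LG9G7680 is at 23.8 to 28.6 CPM after 1 d of light and under 12 CPM in all other libraries.

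The comparison of dark-kept seeds with seeds given 14 d of light asks what darkness in place of light in the second week did at equal seed age. The CYP707A2 model fell to 26.8 ± 8.27 CPM in dark-kept seeds, against 107 ± 10.97 CPM after 14 d of light (mean ± SD, n = 3 each). This is a log2 fold change of -2.01 ± 0.18 (SE), with a 95% interval of -2.39 to -1.62, and a 4.02-fold difference (edgeR quasi-likelihood test, Benjamini-Hochberg adjusted p = 1.35e-05). It was 1 of 3 tested CYP707A models past the threshold of 0.05, where 13.1% of all tested genes were (6.05% higher and 7.02% lower). By p-value it ranked 49 among the 15301 tested genes, and 1.99% of them changed by as much or more in either direction. The call was kept whichever of the 12 libraries was left out (highest adjusted p = 0.000282), and its value was -2.07 without 14 d light replicate 2.

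Against their own starting point at 7 d, seeds moved in opposite directions in light and in darkness. CYP707A2 fell to 26.8 ± 8.27 CPM in dark-kept seeds, against 54.2 ± 7.52 CPM at 7 d of light (log2 fold change -1.05 ± 0.18, adjusted p = 0.00199 by edgeR). Here too it was 1 of 3 tested models called, where 18.4% of all tested genes were (8.42% higher and 9.99% lower). With total counts alone as scaling, 34.6% of all calls in that comparison were higher, against 45.7% with the scaling used. It rose to 107 ± 10.97 CPM after 14 d of light, against 54.2 ± 7.52 CPM after 7 d (0.96 ± 0.16, adjusted p = 0.0179 by edgeR). In that comparison 0.307% of all tested genes were called (0.163% higher and 0.144% lower), and CYP707A2 ranked 31 by p-value. Both comparisons share the libraries of 7 d. The rise in light kept its size in every leave-out (log2 fold change 0.88 to 1.10), but 3 leave-outs ended its call: those of 7 d light replicate 2 (adjusted p = 0.13), of 14 d light replicate 1 (0.0783) and of 14 d light replicate 3 (0.0762). A fit of only the 6 libraries compared also ended it (0.0812). The call held without the libraries that stood apart, at 1.02 without 14 d light replicate 2 (adjusted p = 0.0188 by edgeR) and 0.89 without 7 d light replicate 3 (0.0354). Over all genes this comparison had 47 calls, against 1662 when 14 d light replicate 2 was left out and 13 when 7 d light replicate 2 was.

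In the first week of light CYP707A2 fell to 54.2 ± 7.52 CPM after 7 d, against 103.5 ± 3.04 CPM after 1 d (log2 fold change -0.92 ± 0.15, 95% interval -1.24 to -0.60, adjusted p = 0.000157 by edgeR). With the CYP707A3 model Aa31LG9G7680 it made 2 of 3 tested models lower, where 60.4% of all tested genes were called (30.7% higher and 29.7% lower). Seeds of 14 d and 1 d of light had 107 ± 10.97 and 103.5 ± 3.04 CPM of CYP707A2, a log2 fold change of 0.04 ± 0.15 with an interval of -0.28 to 0.35 (adjusted p = 0.839 by edgeR). The sign of this last value turned under scaling by total counts alone (-0.13). Dark-kept seeds had 26.8 ± 8.27 CPM, against 103.5 ± 3.04 CPM after 1 d of light (-1.97 ± 0.17, adjusted p = 5.42e-07 by edgeR). The order of the levels was thus dark-kept, 7 d, 1 d and 14 d of light, in which 1 d and 14 d did not differ beyond their spread and the other neighbours did.

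**Figure D2:**
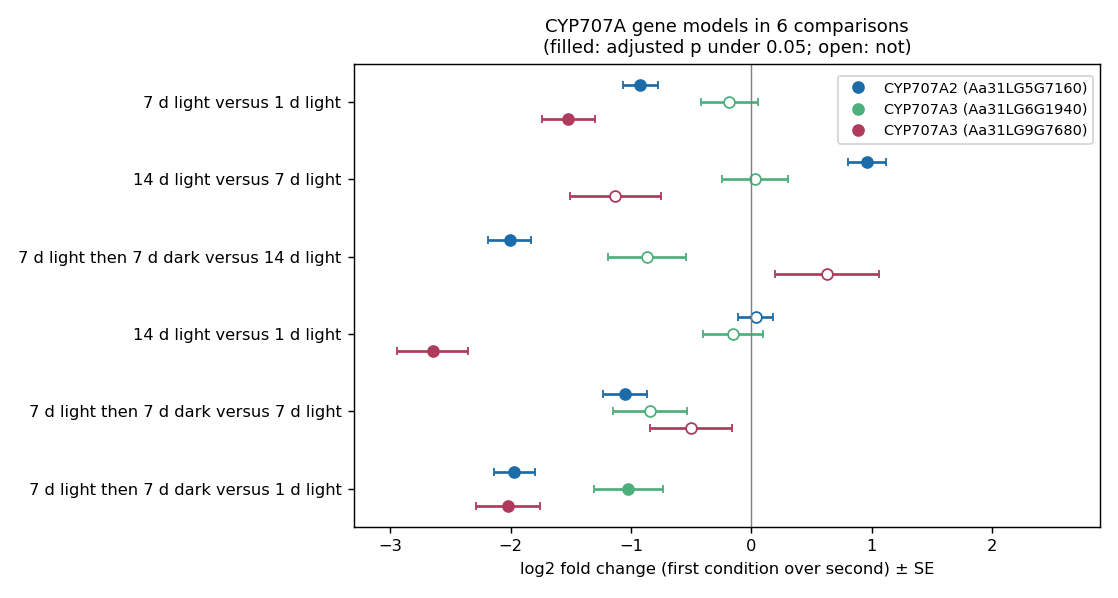
Log2 fold change (first condition of each row over the second) ± SE of the 3 tested CYP707A models in the 6 comparisons, from 1 edgeR fit; filled points passed an adjusted p of 0.05, open points did not. CYP707A2 is at -2.01 in dark-kept against 14 d light seeds and at 0.96 in 14 d against 7 d light seeds, while Aa31LG9G7680 is below 0 in every row but the comparison of dark-kept with 14 d light seeds.

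The models paired with CYP707A3 behaved unlike each other. Aa31LG9G7680 fell in the first week and did not come back in light. It had 14, 5 and 10 counts in dark-kept seeds, against 104, 87 and 125 after 1 d of light, 25, 25 and 10 after 7 d and 3, 7 and 9 after 14 d. In CPM this was 9.47, 4.07 and 5.55 in dark-kept seeds, 26.2, 23.8 and 28.6 after 1 d, 9.22, 11.03 and 6.36 after 7 d, and 3.55, 2.87 and 6.75 after 14 d. The libraries of 1 d stood above all others, and the libraries of the other 3 conditions overlapped.

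After 7 d of light Aa31LG9G7680 averaged 8.87 ± 2.35 CPM, against 26.2 ± 2.42 CPM after 1 d (log2 fold change -1.52 ± 0.22, adjusted p = 7.04e-05 by edgeR). After 14 d it averaged 4.39 ± 2.07 CPM, against 26.2 ± 2.42 CPM after 1 d (-2.65 ± 0.30, 6.27-fold lower, adjusted p = 8.06e-06 by edgeR). In that comparison it was 1 of 3 tested models called, where 63.4% of all tested genes were (31.8% higher and 31.6% lower). Dark-kept seeds had 6.36 ± 2.79 CPM, against 26.2 ± 2.42 CPM after 1 d (-2.02 ± 0.27, adjusted p = 1.93e-05 by edgeR). These differences from 1 d were smaller when trends with gene length and read density were taken out of every library. They were then -1.14 for 7 d, -2.215 for 14 d and -1.48 for dark-kept seeds, all still called (highest adjusted p = 0.000446 by edgeR). Among the 3 later conditions no difference of this model passed the test. Its log2 fold change was -1.13 (95% interval -1.94 to -0.32, adjusted p = 0.28 by edgeR) for 14 d against 7 d of light, and 0.63 (-0.31 to 1.56) for dark-kept against 14 d light seeds. It was -0.50 (-1.23 to 0.23) for dark-kept against 7 d light seeds. With 1 library left out these values ran from -1.56 to -0.72, from 0.23 to 1.06 and from -0.87 to -0.31, and in no leave-out did any of them pass the test (lowest adjusted p = 0.126 by edgeR). The ends came without 14 d light replicates 3 and 2 in the first, without 14 d light replicates 2 and 3 in the second, and without dark-kept replicates 1 and 2 in the third. With 3 to 25 counts in each library of these conditions, the intervals leave room for changes of more than a doubling.

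Aa31LG6G1940, the other model paired with CYP707A3, had no difference past the threshold within the light series. It had 22, 24 and 12 counts in dark-kept seeds, against 97, 103 and 118 after 1 d of light, 67, 39 and 46 after 7 d and 22, 48 and 38 after 14 d. In CPM this was 14.9, 19.55 and 6.66 in dark-kept seeds, 24.4, 28.1 and 27.0 after 1 d, 24.7, 17.2 and 29.3 after 7 d, and 26.1, 19.7 and 28.5 after 14 d. The 3 light conditions overlapped, and the dark-kept libraries overlapped with those of 7 d alone.

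The difference of Aa31LG6G1940 between dark-kept and 1 d light seeds passed the test: 13.7 ± 6.53 CPM in dark-kept seeds against 26.5 ± 1.92 CPM after 1 d (log2 fold change -1.02 ± 0.28, adjusted p = 0.00604 by edgeR). All 3 tested models were lower in that comparison, where 68.7% of all tested genes were called (33.2% higher and 35.5% lower). For this model the call rested partly on dark-kept replicate 3, without which the value was -0.64 (adjusted p = 0.0423). It was lost when a trend with gene length and one with read density was taken out of every library (-0.64, adjusted p = 0.107). The model was at -0.87 ± 0.32 for dark-kept against 14 d light seeds (adjusted p = 0.1 by edgeR) and at -0.84 ± 0.31 for dark-kept against 7 d light seeds (0.0755). Without dark-kept replicate 3 these values were -0.47 and -0.43. Without dark-kept replicate 2 they were -1.19 (adjusted p = 0.0513) and -1.16, and the comparison with 7 d then passed (adjusted p = 0.0436). Within the light series its log2 fold changes were -0.18 for 7 d against 1 d (95% interval -0.69 to 0.32), 0.03 for 14 d against 7 d (-0.56 to 0.62) and -0.15 for 14 d against 1 d (-0.70 to 0.39).

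The sources used here do not say how reads from related models were divided in counting, and the split between the models paired with CYP707A3 is therefore uncertain. With their counts summed, the pair fell in the first week (7 d against 1 d of light, log2 fold change -0.70 ± 0.18, adjusted p = 0.00489 by edgeR). The sum was at -0.53 ± 0.25 in dark-kept against 14 d light seeds (adjusted p = 0.2) and at -0.20 ± 0.22 in 14 d against 7 d light seeds (0.691). In a test of any difference over the 4 conditions, all 3 models passed, CYP707A2 with an adjusted p of 1.23e-06, Aa31LG9G7680 with 4.65e-06 and Aa31LG6G1940 with 0.0342 (edgeR), where 72.3% of all tested genes did.

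Aa31LG8G6060, the model paired with CYP707A4, had 0 counts in all 12 libraries. Over the 27113305 counts of the series, a count of 0 allows a level of up to 0.111 CPM (3 counts of the total), and in single libraries up to between 0.751 and 3.27 CPM. Such limits cover counting error only. Across the series, 4925 models had 0 counts in every library.

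To compare models with each other, levels were put per gene length (RPKM, the CPM divided by gene length in kilobases). On this scale CYP707A2 averaged 8.87 ± 2.74 RPKM in dark-kept seeds, and 34.2 ± 1.00, 17.9 ± 2.49 and 35.5 ± 3.62 RPKM after 1, 7 and 14 d of light. Aa31LG6G1940 averaged 3.36 ± 1.60 RPKM in dark-kept seeds and 6.50 ± 0.47, 5.82 ± 1.49 and 6.07 ± 1.12 RPKM in the light series. Aa31LG9G7680 averaged 2.74 ± 1.20 RPKM in dark-kept seeds and 11.3 ± 1.04, 3.82 ± 1.01 and 1.89 ± 0.89 RPKM in the light series. After 1 d of light Aa31LG9G7680 was thus the second model by per-length level in every library, and after 14 d it was the third in every library. The rank after 1 d rests on the division by length. In CPM Aa31LG9G7680 averaged 26.2 ± 2.42 and Aa31LG6G1940 26.5 ± 1.92 after 1 d. By CPM Aa31LG9G7680 was the lower in replicate 2 (23.8 against 28.1) and the higher in replicates 1 and 3. Whether the gene lengths include introns was not checked here.

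The summed level of the family was 14.97 ± 3.13 RPKM in dark-kept seeds, and 52.0 ± 0.30, 27.6 ± 2.78 and 43.5 ± 4.42 RPKM after 1, 7 and 14 d of light. The libraries of the 4 conditions did not overlap in this sum, which by condition mean was mostly CYP707A2. How many genes separate the conditions in this way was not counted. In the test of any difference over the 4 conditions, 72.3% of all tested genes passed. CYP707A2 made up 59.1 ± 11.8% of the sum in dark-kept seeds, 65.8 ± 1.92% after 1 d, 64.9 ± 2.89% after 7 d and 81.8 ± 3.65% after 14 d. Its share was 77.6 to 84.4% in the libraries of 14 d and 45.6 to 67.4% in the other 9.

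**Figure D3:**
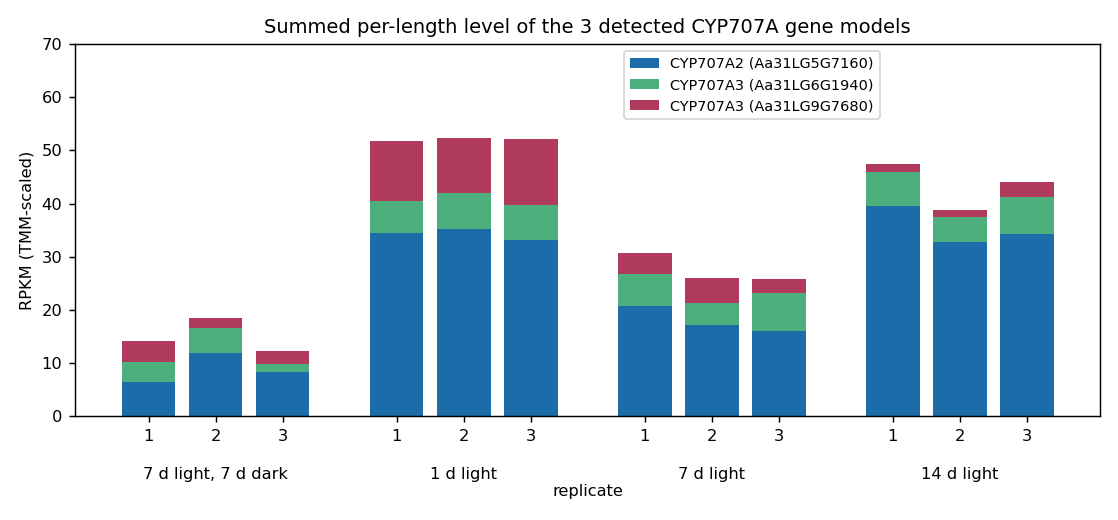
Summed per-length level (TMM-scaled RPKM, linear axis from 0) of the 3 detected CYP707A models in each library, stacked by model, with conditions side by side and replicates numbered. The sum is 12.3 to 18.4 RPKM in dark-kept seeds and 51.7 to 52.3 RPKM after 1 d of light, and the part of Aa31LG9G7680 has its lowest mean after 14 d (1.89 RPKM).

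Ratios of models within a library do not depend on how libraries are scaled, and each of the 3 pairs differed over the 4 conditions (exact permutation test of 15400 partitions of the libraries, adjusted over the 3 pairs). The per-length log2 ratio of CYP707A2 over Aa31LG9G7680 was 1.67 ± 1.00 in dark-kept seeds, and 1.60 ± 0.17, 2.22 ± 0.35 and 4.20 ± 0.62 after 1, 7 and 14 d of light (exact permutation adjusted p = 0.022). As a ratio, CYP707A2 stood 3.19-fold above Aa31LG9G7680 in dark-kept seeds, and 3.04-fold, 4.67-fold and 18.4-fold above it after 1, 7 and 14 d of light. The libraries of 14 d, from 3.49 to 4.63, lay above all others, from 0.64 to 2.64. The log2 ratio of Aa31LG6G1940 over Aa31LG9G7680 was 0.20 ± 1.01 in dark-kept seeds and -0.79 ± 0.19, 0.58 ± 0.76 and 1.65 ± 0.39 in the light series (exact permutation adjusted p = 0.022). That of CYP707A2 over Aa31LG6G1940 was 1.47 ± 0.75 in dark-kept seeds and 2.39 ± 0.11, 1.64 ± 0.44 and 2.54 ± 0.24 in the light series (exact permutation adjusted p = 0.0475). This last call was lost in 11 of 12 leave-outs (adjusted p = 0.0172 to 0.113). For Aa31LG6G1940 over Aa31LG9G7680 the call was lost without 1 d light replicate 1 or 3 or 14 d light replicate 1 or 2 (adjusted p up to 0.0834, exact permutation).

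**Figure D4:**
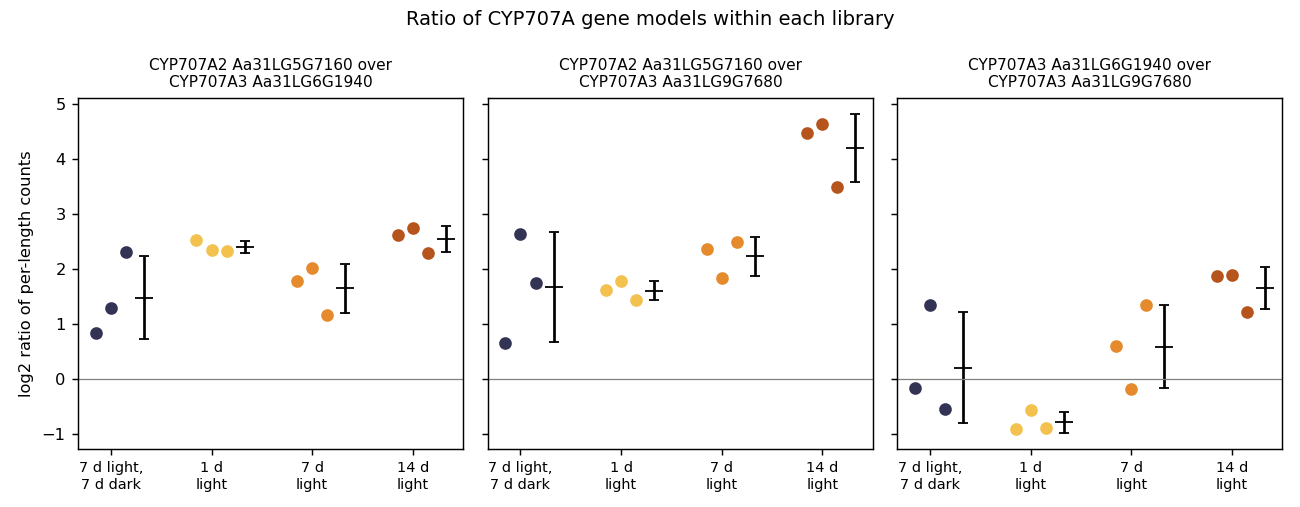
Per-length log2 ratio of each pair of CYP707A models within each library, by condition; points are libraries and black bars the mean ± SD of 3 libraries. The ratio of CYP707A2 over Aa31LG9G7680 is 3.49 to 4.63 after 14 d of light and at most 2.64 in the other 9 libraries.

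Across the 12 libraries the log2 CPM of CYP707A2 and Aa31LG6G1940 had a Pearson r of 0.722, that of CYP707A2 and Aa31LG9G7680 0.247, and that of the CYP707A3 models 0.276. These are descriptions over libraries that share conditions and depth. Once condition means were taken out, the values were 0.304, -0.479 and -0.0606. The genes whose log2 CPM ran most like CYP707A2 over the 12 libraries, among 11659 with a mean of at least 8 CPM and a described Arabidopsis partner, were paired with AT5G06110 (a DnaJ and Myb-like domain gene, r = 0.963), AT5G17780 (an alpha/beta-hydrolase, 0.952), AT5G56860 (a GATA zinc finger transcription factor, 0.946) and AT5G57180 (chloroplast import apparatus 2, 0.935). The GATA factor model (Aa31LG3G12760) averaged 26.3 CPM in dark-kept seeds and 77.5, 40.4 and 56.3 CPM after 1, 7 and 14 d of light, and without the libraries of 1 d its r was 0.99 over 9 libraries. The genes most like Aa31LG9G7680 were led by a subtilisin-like serine protease gene (Aa31LG8G16220, r = 0.955), with 3.56 CPM in dark-kept seeds and 34.7, 5.26 and 3.23 CPM in the light series. Without the libraries of 1 d its r was 0.809. Those most like Aa31LG6G1940 were led by a stearoyl-acyl-carrier-protein desaturase gene (Aa31LG11G13380, r = 0.916, and 0.927 without the libraries of 1 d).

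Other genes of ABA metabolism, transport and control were taken from 6 lists of 34 Arabidopsis genes, of which 30 were paired with 37 models and 25 models were tested. In the ABA synthesis list 8 of 13 models were tested. In dark-kept against 14 d light seeds 2 rose and 2 fell (1 and 2 with DESeq2), where 6.05% of all tested genes rose and 7.02% fell. The median log2 fold change was -0.12, beside -0.03 over all tested genes. NCED5 (Aa31LG6G5570), a dioxygenase of the committed step of ABA synthesis, fell as CYP707A2 did, to 18.0 ± 3.50 CPM in dark-kept seeds against 59.8 ± 5.46 CPM after 14 d of light (-1.73 ± 0.16, adjusted p = 2.13e-05 by edgeR). NCED6 (Aa31LG8G10550), of the same enzyme family, rose to 112.8 ± 16.6 CPM in dark-kept seeds, against 72.8 ± 8.73 CPM after 14 d of light (0.63 ± 0.14, adjusted p = 0.0101 by edgeR). ABA2 (Aa31LG5G9220), which makes abscisic aldehyde, also rose (0.65 ± 0.20, adjusted p = 0.049 by edgeR), and ABA1 (Aa31LG1G15560), the zeaxanthin epoxidase, fell (-0.46 ± 0.13, adjusted p = 0.03 by edgeR).

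In the first week of light, when CYP707A2 and Aa31LG9G7680 fell, 5 of the 8 tested ABA synthesis models rose and 1 fell, where 30.7% of all tested genes rose and 29.7% fell. The median log2 fold change was 0.69, beside 0.02 over all tested genes. The model that fell was NCED5 (Aa31LG6G5570), with 40.3 ± 4.84 CPM after 7 d and 105.6 ± 6.78 CPM after 1 d (-1.40 ± 0.13, adjusted p = 1.41e-06 by edgeR). The largest rise was that of NCED6 (Aa31LG8G10550), with 90.8 ± 11.1 CPM after 7 d and 22.2 ± 0.87 CPM after 1 d (2.03 ± 0.14, adjusted p = 2.25e-07 by edgeR). NCED9 (Aa31LG4G2560) was also among those that rose, with 20.2 ± 1.43 CPM after 7 d and 10.5 ± 2.29 CPM after 1 d (0.92 ± 0.28, adjusted p = 0.0122 by edgeR). ABA3 (Aa31LG7G1090), which supplies the cofactor of the last enzyme of synthesis, rose by 0.72 ± 0.14 (adjusted p = 0.000515 by edgeR). In the second week of light 0 of the 8 synthesis models were called by edgeR and 0 by DESeq2. Of all tested genes only 0.307% were called there by edgeR, so 0 of 8 says little about this list. An unadjusted p under 0.05 was found for 4 of the 8 (edgeR), beside 1814 of all 15301 tested genes. The median log2 fold change of the synthesis models was -0.01, and NCED5 had the lowest p among them (0.60 ± 0.14, adjusted p = 0.114 by edgeR).

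The step after CYP707A was measured through ABH2 (Aa31LG5G13920), a reductase that turns phaseic acid into dihydrophaseic acid in Arabidopsis. It fell to 19.3 ± 2.75 CPM after 7 d, against 37.1 ± 2.34 CPM after 1 d of light (-0.94 ± 0.16, adjusted p = 0.000277 by edgeR). Its value in dark-kept against 14 d light seeds was 0.00 ± 0.22 on the log2 scale, with 18.4 ± 5.82 and 18.2 ± 0.69 CPM. The conjugation route had 1 tested model of 5, the ABA glucosyltransferase UGT71C5 (Aa31LG1G6490). It fell to 88.4 ± 4.61 CPM in dark-kept seeds, against 117.2 ± 5.80 CPM after 14 d of light (-0.41 ± 0.10, adjusted p = 0.0128 by edgeR). P450 enzymes take electrons from the reductases ATR1 and ATR2. Of 3 tested reductase models, 1 fell in dark-kept against 14 d light seeds, where 7.02% of all tested genes fell. It was the ATR2 model Aa31LG2G20320 (-0.60 ± 0.12, adjusted p = 0.00508 by edgeR), and the others were at -0.22 and 0.10. Of 3 tested ABA transporter models, 0 were called in that comparison by edgeR and 0 by DESeq2, where 13.1% of all tested genes were called by edgeR. An unadjusted p under 0.05 was found for 0 of the 3 (edgeR), beside 4087 of all 15301 tested genes. With 3 models such counts say little about transport. In 7 d against 1 d light seeds the importer gene ABCG40 (Aa31LG7G240) rose (1.12 ± 0.19, adjusted p = 0.000244 by edgeR) and the transporter gene NPF4.6 (Aa31LG4G10980) fell (-2.34 ± 0.44, adjusted p = 0.000475 by edgeR). Of all tested genes 30.7% rose and 29.7% fell there.

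**Figure D5:**
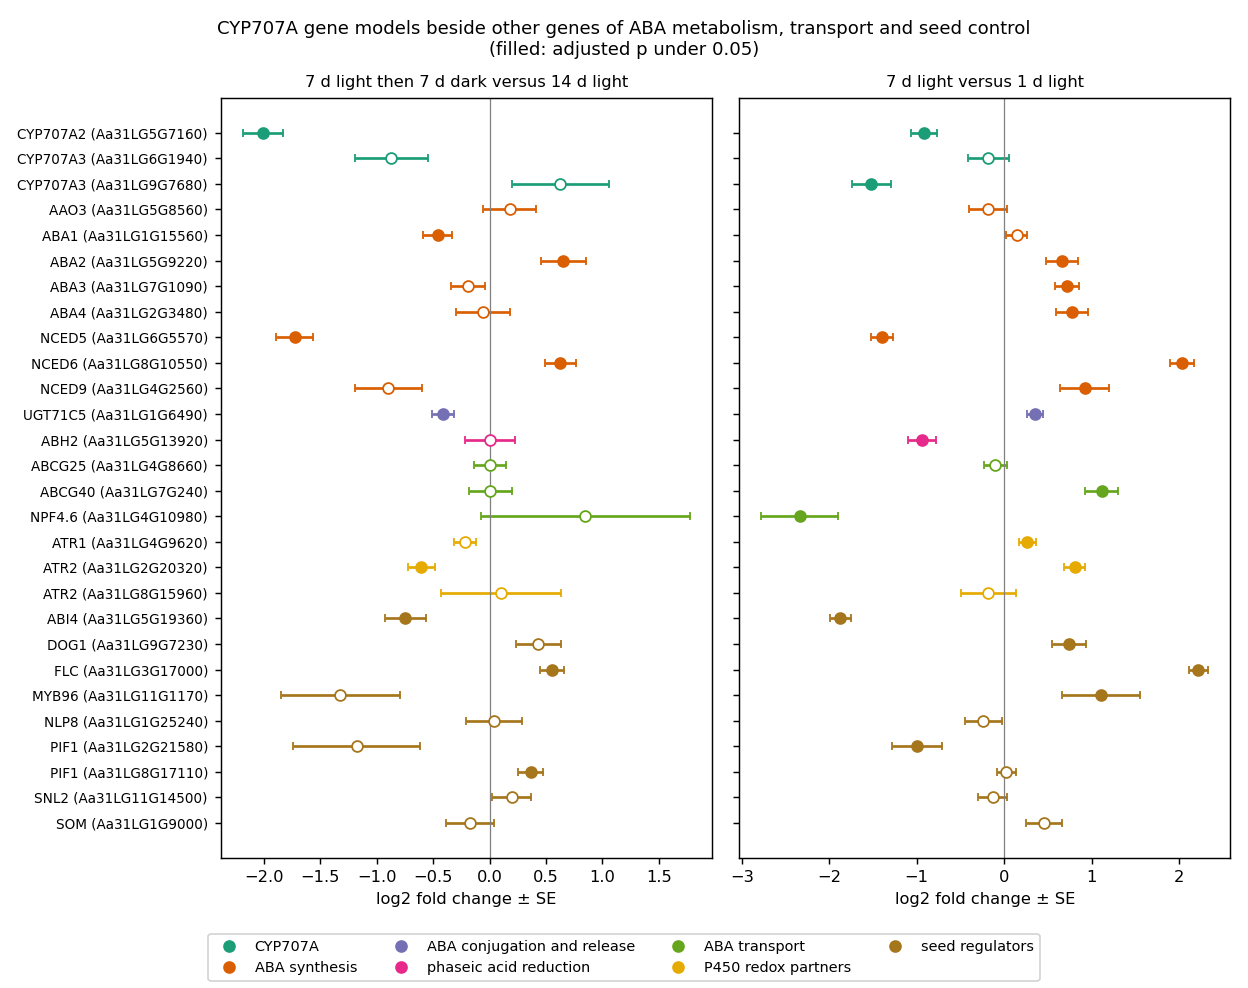
Log2 fold change ± SE of the CYP707A models and the 25 tested models of the 6 lists in dark-kept against 14 d light seeds (left) and in 7 d against 1 d light seeds (right), coloured by list; filled points passed an adjusted p of 0.05. In the left panel CYP707A2 (-2.01) and NCED5 (-1.73) lie lowest of the models shown, and in the right panel NCED6 (2.03) and FLC (2.22) lie highest.

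The seed regulator list holds genes tied to ABA breakdown or seed ABA content in Arabidopsis, and 9 of its 10 models were tested. In dark-kept against 14 d light seeds 2 rose and 1 fell, where 6.05% of all tested genes rose and 7.02% fell. ABI4 (Aa31LG5G19360), a transcription factor reported as a repressor of CYP707A genes in Arabidopsis, fell to 15.2 ± 2.61 CPM in dark-kept seeds, against 25.7 ± 3.77 CPM after 14 d of light (-0.75 ± 0.18, adjusted p = 0.0159 by edgeR). FLC (Aa31LG3G17000) rose to 683.2 ± 44.8 CPM, against 465.1 ± 34.4 CPM (0.56 ± 0.11, adjusted p = 0.00443 by edgeR), and the PIF1 model Aa31LG8G17110 rose to 221.5 ± 17.3 CPM, against 172.1 ± 15.9 CPM (0.36 ± 0.11, adjusted p = 0.0448 by edgeR). The other PIF1 model, Aa31LG2G21580, had 1.69 ± 1.05 CPM in dark-kept seeds and 3.60 ± 2.12 CPM after 14 d of light (-1.18 ± 0.56, adjusted p = 0.201 by edgeR). NLP8 (Aa31LG1G25240), a nitrate-dependent activator of CYP707A2 in Arabidopsis seeds, had 47.0 ± 11.7 CPM in dark-kept seeds and 44.1 ± 12.1 CPM after 14 d of light (0.04 ± 0.25, adjusted p = 0.947 by edgeR). In 7 d against 1 d light seeds 3 of the 9 tested models rose and 2 fell (2 and 2 with DESeq2). Of all tested genes 30.7% rose and 29.7% fell there. FLC (2.22 ± 0.11), MYB96 (Aa31LG11G1170, 1.11 ± 0.45) and the dormancy gene DOG1 (0.74 ± 0.19) rose. The PIF1 model Aa31LG2G21580 and ABI4 fell. ABI4 fell to 29.0 ± 2.01 CPM after 7 d, against 107 ± 5.21 CPM after 1 d (-1.87 ± 0.12, adjusted p = 1.66e-07 by edgeR), in the same interval as CYP707A2. The dormancy gene DOG1 (Aa31LG9G7230) had 65.0 ± 8.53 CPM in dark-kept seeds and 49.3 ± 14.1 CPM after 14 d of light (0.43 ± 0.20, adjusted p = 0.181 by edgeR).

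Among the 175 other models with the same gene ontology terms, 76 were tested. In dark-kept against 14 d light seeds 5 of them rose and 10 fell, where 6.05% of all tested genes rose and 7.02% fell, and their median log2 fold change was -0.15, beside -0.03 over all tested genes. In 14 d against 7 d light seeds 1 fell and none rose, where 0.307% of all tested genes were called, and the median was 0.09, beside -0.01 over all tested genes.

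In whole seeds, fewer cells of a type and less RNA per cell cannot be told apart. The summed level of 5 models paired with endosperm genes (EXPA2 and mannanases) was 195.3 to 206.3 CPM in dark-kept seeds, and 237.9 to 261.3, 192.1 to 218.2 and 204.1 to 245.2 CPM after 1, 7 and 14 d of light. Of these, EXPA2 had 0 counts in all libraries but those of 1 d, and no model is paired with EPR1. EXPA2 thus could not differ between dark-kept and 14 d light seeds. In that comparison 1 of the 5 models fell and 0 rose, where 7.02% of all tested genes fell and 6.05% rose. The model that fell was the MAN5 model Aa31LG2G22180 (log2 fold change -1.06, adjusted p = 0.00344 by edgeR). In 7 d against 1 d light seeds, the interval in which CYP707A2 and Aa31LG9G7680 fell, 4 of the 5 endosperm models fell and 1 rose. Of all tested genes 29.7% fell and 30.7% rose. EXPA2 is among the 4 that fell, and with counts after 1 d alone it could only fall. The same MAN5 model was among those that fell (-0.98 ± 0.15), and the other MAN5 model, Aa31LG8G10120, rose (1.09 ± 0.23). For 5 seed coat models the range was 86.6 to 98.6 CPM in dark-kept seeds, and 68.3 to 71.6, 68.4 to 101.1 and 79.5 to 99.5 CPM in the light series, with the TT12 model at 0 counts, the TT10 model at 1 and the BAN model at 5 over all libraries. The seed coat sum rests on MUM4 and PER36, which moved apart in the first week. MUM4 (Aa31LG10G1710) fell to 6.76 ± 1.34 CPM after 7 d, against 29.7 ± 0.48 CPM after 1 d (-2.17 ± 0.21, adjusted p = 2.37e-06 by edgeR). PER36 (Aa31LG4G19100) rose to 74.1 ± 16.4 CPM after 7 d, against 40.4 ± 1.87 CPM after 1 d (0.86 ± 0.15, adjusted p = 0.000289 by edgeR). For 4 seed storage models it was 2194 to 2932 CPM in dark-kept seeds, and 784.3 to 906.4, 1490 to 2339 and 1609 to 3800 CPM in the light series. The part of tissue makeup in the CYP707A changes was not tested.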

How the data were processed

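RNA-seq counts of 12 libraries were used. The counts are raw read counts per gene model as the authors deposited them. The RPKM values that the authors deposited match those recomputed from counts, lengths and totals to within a relative 3.45e-08, and they entered no test. The submitters' processing notes name bcl2fastq 2.17.1, Trimmomatic, Bowtie2 2.3.5.1, HTSeq 0.11.2 and the build TAIR10, while identifiers are those of *Aethionema* gene models; the sources used here do not give the strand setting. Sequences and coordinates were not used here.

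The model, in edgeR 4.0.16 (R 4.3.3), had 4 condition means over all 12 libraries, with TMM scaling and the filterByExpr filter, and gave quasi-likelihood F-tests (two-sided) in 6 comparisons, and Benjamini-Hochberg adjustment over 15301 tested genes at 0.05. The common dispersion was 0.0177, and untested genes held 0.379% of counts. Standard errors were derived from each log2 fold change and its F. Ratios used a pseudocount of 0.5 counts; likeness used log2 CPM with a prior count of 2. Named genes were all CYP707A models, tested members of the lists, and the 4 genes of highest r for each model. Members, lists and tests were chosen with earlier results of these data known. The fit was also run on simulated data with the common dispersion for every gene and no library that stood apart. That setting is simpler than these data, and no result here rests on it. Alternatives were RLE scaling, total counts alone, no filter, DESeq2 1.42.0, the 6 libraries compared, a replicate block, removal of library trends, summed copies and each library left out.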

Additional observations from a re-analysis of the deposited data

Results flagged for a closer look

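The CYP707A2 model (Aa31LG5G7160) was flagged because its change over the second week differed between darkness and light. It fell to 26.8 CPM in dark-kept seeds and rose to 107 CPM in seeds of 14 d light, both against 54.2 CPM after 7 d of light. The difference between those changes is the comparison of dark-kept with 14 d light seeds, -2.01 on the log2 scale (edgeR adjusted p = 1.35e-05), lower in 3 of 3 dark-kept libraries. No other CYP707A model had a difference past the threshold there: Aa31LG6G1940 was at -0.87 (adjusted p = 0.1) and Aa31LG9G7680 at 0.63 (0.396). Of all tested genes, 13.1% were past that threshold (6.05% higher and 7.02% lower).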

How the results depend on the processing

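Of 18 fold changes (3 models in 6 comparisons), 9 were past the threshold, and 8 of these stayed so whichever library was left out. The 6 comparisons share libraries, so the 18 are not separate results. The share of all tested genes called ran from 0.307% (14 d against 7 d light) to 68.7% (dark-kept against 1 d light). Under all alternatives, 0 of the 9 turned direction. The exception among leave-outs was the rise of CYP707A2 at 14 d against 7 d of light: called models in that comparison were 0 to 1 over the leave-outs, 0 with the replicate block (log2 fold change 0.97, adjusted p = 0.077) and 0 with only the 6 libraries compared (0.97, 0.0812). Over all genes that comparison had 47 calls, 13 to 1662 over the leave-outs (13 and 20 without 7 d replicates 2 and 1, 22 and 31 without 14 d replicates 3 and 1, 99 without 7 d replicate 3, 1662 without 14 d replicate 2), 25 with the replicate block, 77 with DESeq2 and 24 with the 6 libraries. Dark-kept against 14 d light had 1999 calls, 1189 to 2241 over the leave-outs (1189 and 1216 without dark-kept replicates 3 and 1, 1259 without 14 d replicate 3) and 856 with the 6 libraries; dark-kept against 7 d light had 2818, and 1609 to 3800 (1609 and 1686 without dark-kept replicates 1 and 2, 1645 and 1705 without 7 d replicates 2 and 1). Called CYP707A models in dark-kept against 7 d light were 1 to 2 over the leave-outs (2 without dark-kept replicate 2). Removing library trends cost the call of Aa31LG6G1940 in dark-kept against 1 d light (-0.64, adjusted p = 0.107).

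Values near 0 that were never called turned sign. For Aa31LG6G1940 these were 14 d against 7 d light with total counts alone (-0.0020; leave-outs -0.15 to 0.25), 7 d against 1 d with trends removed (0.060) and 14 d against 1 d with trends removed (0.20; leave-outs -0.31 to 0.031). For CYP707A2 it was 14 d against 1 d light with total counts alone (-0.13), with trends removed (-0.14) and in leave-outs (-0.070 to 0.075). Total counts alone moved the median of all genes by -0.13 (7 d), -0.16 (14 d) and -0.20 (dark-kept) against 1 d.

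The range of condition means of the log2 ratios over the leave-outs was 0.90 to 1.49 for CYP707A2 over Aa31LG6G1940, 2.38 to 3.01 for CYP707A2 over Aa31LG9G7680 and 2.33 to 2.67 for Aa31LG6G1940 over Aa31LG9G7680 (adjusted p up to 0.0834 in the last, exact permutation). The cause of these changes was not tested. Replicate numbers did not pair the samples: 4 of 18 same-number correlations of deviations exceeded 0.1 (-0.468 to 0.475), and 4 of 12 libraries correlated best with their own number. Depth limits Aa31LG9G7680 most, with 3 to 25 counts in libraries after the first day.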
